A study of Mus musculus with 18 samples.

Results

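The mRNAs described here come from 10 genes of the brush border cytoskeleton, Myo1a, Vil1, Ezr, Espn, Myo7a, Myo7b, Cdhr2, Cdhr5, Ush1c and Pls1, and the measured feature is 5-methylcytosine (m5C). A site was counted when a listed m5C position lay on the gene's own strand in an exon of one of its RefSeq mRNA transcripts (mm10). Across 9 bisulfite libraries 222 distinct sites met this rule, out of 17998 distinct sites in mRNA exons and 25890 sites in all. All 10 genes carried at least 1 site, as did 2598 of the 21000 annotated genes. The genes were selected on the number of their sites in these same libraries, so those counts are a description and carry no test.

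The study compared RNA m5C in primary cortical neurons of C57BL/6 mice, isolated at fetal day 18, with and without oxygen-glucose deprivation and reoxygenation (OGD/R), an in vitro model of ischemia and reperfusion. The control group was left untreated. In the OGD/R 1.5 h and OGD/R 3 h groups the neurons were held in hypoxia in DMEM without glucose for 1.5 h or 3 h and were then returned to normal medium for 24 h. The gas mixture on the labels, 94% N2, 21% O2 and 5% CO2, adds up to more than the whole, so the oxygen level during deprivation cannot be read from it. Each group had 3 libraries, all depleted of rRNA and converted with bisulfite, which turns cytosine into uracil unless it carries the methyl group. The 9 mock libraries, made without conversion, were not analysed here. The coverage of the 3 control libraries, and of the 3 OGD/R 3 h libraries, differed by less than the sampling noise, so the libraries of a group were counted as 1 sample. No p-value is therefore given for any difference between groups, and the SDs below describe the spread between sequencing libraries only.

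In brush border cells, microvilli are held up by bundles of actin filaments. Villin (Vil1), plastin 1 or fimbrin (Pls1) and espin (Espn) bundle the filaments, the motor Myo1a and ezrin (Ezr) tie the bundle to the membrane, and the cadherins Cdhr2 and Cdhr5 link the tips of neighbouring microvilli through a complex with harmonin (Ush1c) and Myo7b. Myo7a, Ush1c and espin also serve the stereocilia of inner ear hair cells, which are built on the same plan.

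The sequences around the sites on which the results turn are shown first, with at most 2 sites for each gene. They were read from the mm10 genome (RefSeq, GRCm38.p6), run 5′ to 3′ on the strand of the mRNA, and have only the central cytosine in capitals. Other cytosines that were called in some library lie in several of these windows and are left in lower case.
Myo1a exon 8, chr10:127710181-127710201, plus strand, CDS: atacggctacCtgaatgggga
Myo1a exon 4, chr10:127706847-127706867, plus strand, CDS: tggctgctgtCtgtgggaaag
Ezr exon 9, chr17:6742439-6742459, minus strand, CDS: aggcgagagaCggtggagaga
Ezr exon 10, chr17:6741517-6741537, minus strand, CDS: aggaggcgagCccaggaggag
Myo7a exon 23, chr7:98077747-98077767, minus strand, CDS: gaaggaactgCtggagcagat
Cdhr2 exon 13, chr13:54719579-54719599, plus strand, CDS: agatggtggaCtatgagaagg
Cdhr2 exon 2, chr13:54712645-54712665, plus strand, CDS: gctttgtgcaCtgcttcctgc
Cdhr5 exon 1, chr7:141276642-141276662, minus strand, CDS: gtttggccaaCctccggggac
Cdhr5 exon 1, chr7:141276654-141276674, minus strand, CDS: gctcacagtgCtgtttggcca
Ush1c exon 13, chr7:46220474-46220494, minus strand, CDS: agaaggctgcCgaggagaatg
Ush1c exon 1, chr7:46238461-46238481, minus strand, 5′UTR: ctggatcaggCtcagtcatgg
Pls1 exon 2, chr9:95795835-95795855, minus strand, 5′UTR: tgaagtagccCttccagtcta
For Vil1 a run of neighbouring sites in exon 19 is shown as 1 window, because different cytosines of the run were called in different groups, and every cytosine called in any library is in capitals.
Vil1 exon 19, chr1:74432406-74432432, plus strand, CDS: agggtgtggaCCCCagCaggaaggagg

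The brush border mRNAs carried more sites after OGD/R 3 h than in either other group. Control replicates 1, 2 and 3 held 46, 49 and 44 sites in the 10 genes, OGD/R 1.5 h replicates held 34, 44 and 49, and OGD/R 3 h replicates held 77, 72 and 73. The means were 46.3 ± 2.52, 42.3 ± 7.64 and 74 ± 2.65 sites (SD, 3 libraries). The OGD/R 3 h libraries thus lay above all libraries of the other groups, whereas OGD/R 1.5 h and control overlapped. The OGD/R 3 h libraries also held more sites in mRNA of any gene, 4703 to 5229 against 3792 to 4137 in control and 3501 to 3738 after OGD/R 1.5 h. As a share of these mRNA sites the brush border sites made up 1.18 ± 0.0141% in control, 1.17 ± 0.179% in OGD/R 1.5 h and 1.52 ± 0.0407% in OGD/R 3 h, and the OGD/R 3 h libraries again lay above all others. A site is listed only where its methylation level reached 0.1 and its coverage 10 reads. From the site lists alone, a change in the number of sites, in RNA amount and in the number of cells that make the RNA cannot be told apart. RNA amount was not examined here. How deeply each library was sequenced is unknown.

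**Figure D1:**
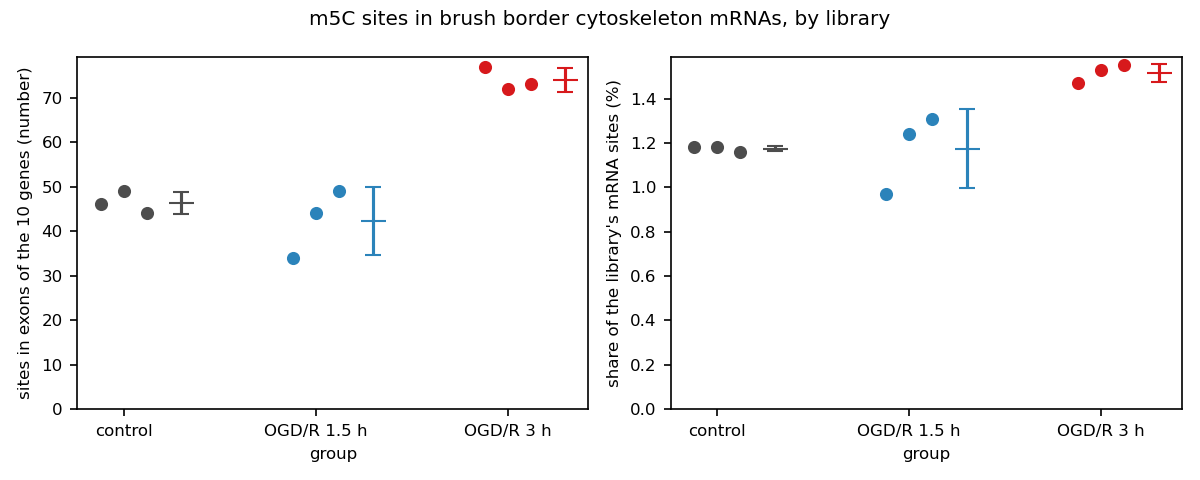
Number of m5C sites in exons of the 10 genes (left) and their share of all mRNA sites of the library in percent (right). Points are single libraries, 3 for each group, and the bar beside them is the mean with its SD; the OGD/R 3 h libraries, at 72 to 77 sites, sit above the other libraries in both panels.

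Sites were also counted in marker genes of several cell types. These lists were chosen with earlier results of these data known, so the counts do not test the labelled cell type. None of 17 neuronal marker genes carried a site in any library, whereas all 24 genes of an intestinal epithelium list did. Sites in the intestinal list numbered 104 to 121 in control libraries, 66 to 77 after OGD/R 1.5 h and 221 to 244 in OGD/R 3 h, which is the highest in the same group as the brush border sites. Whether these markers have a part in the counts of the brush border genes was not tested. Among other tissues with microvilli or stereocilia, 1 of 10 kidney tubule genes (Aqp1) and 1 of 7 hair cell genes (Atoh1) carried a site, and of 5 astrocyte genes 1 did (Aldh1l1). For reference, 2598 of the 21000 annotated genes carried a site in some library. A gene without a listed site may still be expressed.

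Sites were spread unevenly over the 10 mRNAs. Myo1a held 87 distinct sites, 39.2% of the 222, and only 11 of the 2598 genes with a site held more. Vil1 and Ezr followed with 34 each, Pls1 with 20, Cdhr5 with 17, Cdhr2 with 12 and Ush1c with 9. Myo7a and Myo7b held 4 each and Espn 1. The order did not follow the number of exon cytosines: Myo7a has 2169 exon cytosines and Myo1a 825. Per 1000 exon cytosines, the union of the 3 control libraries held 44.8 sites in Myo1a, 23.3 in Ezr, 11.2 in Vil1 and 0.922 in Myo7a. In OGD/R 3 h the corresponding densities were 70.3 in Myo1a, 31.1 in Vil1, 15.5 in Ezr and 14.4 in Cdhr5. Myo1a stood above each other gene in every library. The ranges of Vil1 and Ezr overlapped in control libraries and after OGD/R 1.5 h, and Vil1 lay above Ezr in all OGD/R 3 h libraries.

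Of 9 member genes with a site in OGD/R 3 h or control, 4 (Myo1a, Vil1, Cdhr2 and Cdhr5) had more sites in every OGD/R 3 h library than in any control library, where 18.5% of all genes with a site did so, and 1 (Myo7a) had fewer in every library, against 18.8% of all genes. In OGD/R 1.5 h none of the 10 genes was separated from control in either direction, against 8.57% of all genes above and 15.2% below. Between OGD/R 3 h and OGD/R 1.5 h, 5 of 10 genes (the same 4 and Myo7b) were higher in OGD/R 3 h, against 19.8% of all genes, and Myo7a was lower, against 13.5%. The pairs of groups share libraries, and the genes were chosen with these counts known, so the shares over all genes stand beside the counts as a reference only. The counts per gene were not scaled to the mRNA sites of each library, which were highest in OGD/R 3 h.

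**Figure D2:**
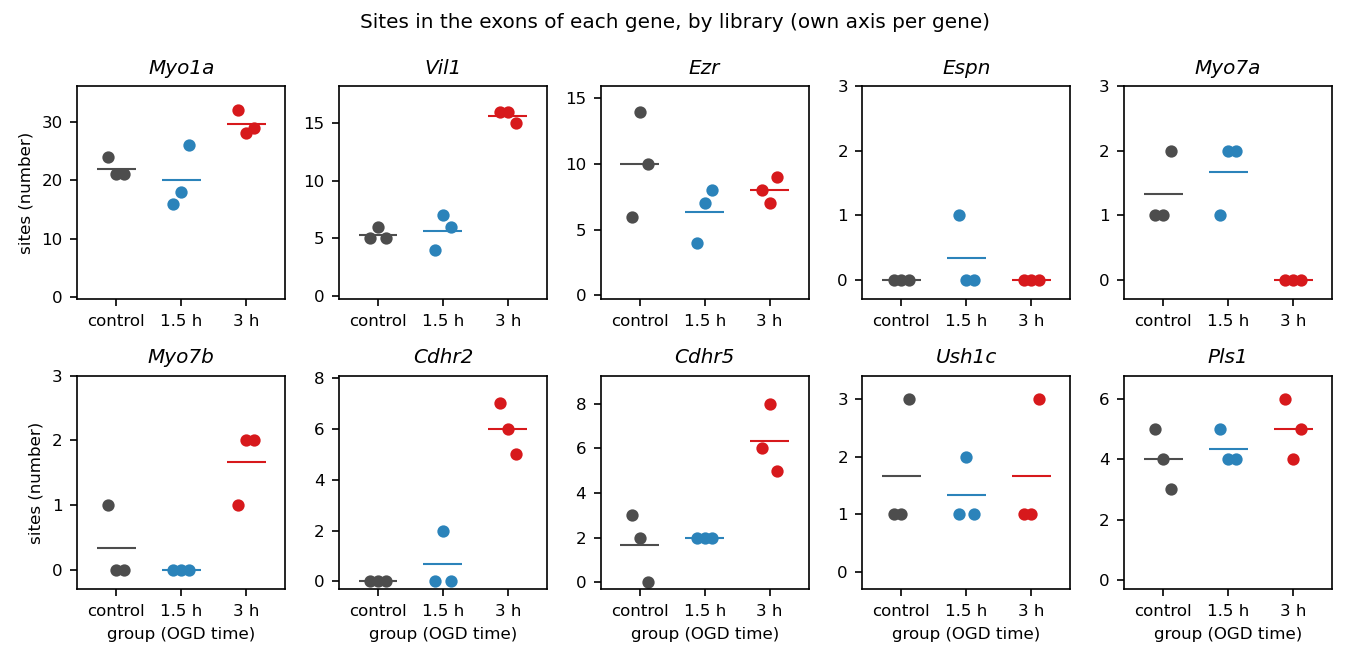
Number of sites in the exons of each gene (vertical axis, own scale per gene) in the 3 groups; points are libraries and lines are means of 3. Vil1, Cdhr2 and Cdhr5 have 15 to 16, 5 to 7 and 5 to 8 sites in OGD/R 3 h and at most 7, 2 and 3 in the other libraries, Myo7a has sites only in control and OGD/R 1.5 h libraries, and Ezr, Ush1c and Pls1 overlap between groups.

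Myo1a, the membrane-linking myosin of the brush border (chr10:127703436-127720940, plus strand), had the most sites in every group. Control libraries held 24, 21 and 21 Myo1a sites, OGD/R 1.5 h libraries 16, 18 and 26, and OGD/R 3 h libraries 32, 28 and 29. In these counts, not scaled to the mRNA sites of the library, the lowest OGD/R 3 h library was above the highest of the other groups by a small margin. When predicted RefSeq transcripts were included as well, control libraries held 28, 23 and 26 and OGD/R 3 h libraries 32, 28 and 30, and the groups were no longer separated.

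The Myo1a sites fell into a dense part and a sparse part. Exons 4, 8 and 9, picked after the positions had been seen, hold 357 of the 3353 exon bases (10.6%) and 54 of the 87 sites (62.1%). The number of sites there overlapped between groups, at 22, 18 and 19 in control, 12, 16 and 22 after OGD/R 1.5 h and 18, 16 and 16 in OGD/R 3 h. In the other exons the numbers were 2, 3 and 2 in control, 4, 2 and 4 after OGD/R 1.5 h, and 14, 12 and 13 in OGD/R 3 h. The difference in Myo1a between OGD/R 3 h and control therefore lay outside the dense exons. From exon 10 to the last exon, which is 73.4% of the mRNA, control libraries held 0, 1 and 0 sites, OGD/R 1.5 h libraries 0, 1 and 2, and OGD/R 3 h libraries 8, 6 and 6.

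Scores also varied along the Myo1a mRNA. The deposited score is 10 times the call score of meRanCall, capped at 1000, and grows with both coverage and methylation level, so that neither can be read from it alone. Over 159 calls in exons 4, 8 and 9 the median score was 10 (range 0 to 518), and over 56 calls in the other exons it was 36.5 (range 0 to 201). Within the other exons, it was 7 over 17 calls in exons 1 and 2 (range 0 to 107) and 71.0 over 24 calls from exon 10 onward (range 38 to 201). No stretch of 32 bases in exons 4, 8 and 9 occurs elsewhere in the genome when C is read as T, as after conversion. All 15 Myo1a sites that were listed in each of the 3 groups lay in the dense exons.

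The most often called member site was the Myo1a exon 8 cytosine at chr10:127710191, in the first window above, which was listed in 8 of 9 libraries. Its score was 518, 261 and 147 in control replicates 1, 2 and 3, 145 and 131 in OGD/R 1.5 h replicates 2 and 3, and 139, 8 and 19 in OGD/R 3 h. All OGD/R 3 h scores were below all control scores. The exon 4 cytosine at chr10:127706857 was listed in 7 libraries with scores of 1, 5 and 22 in control, 23, 35 and 8 after OGD/R 1.5 h and 27 in OGD/R 3 h replicate 3, and the groups overlapped. At chr10:127710246 in exon 8 the scores were 3 in control replicate 3, 8 and 14 in OGD/R 1.5 h replicates 2 and 3, and 46, 108 and 43 in OGD/R 3 h. This cytosine was thus called in more libraries, and with higher scores, in OGD/R 3 h.

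**Figure D3:**
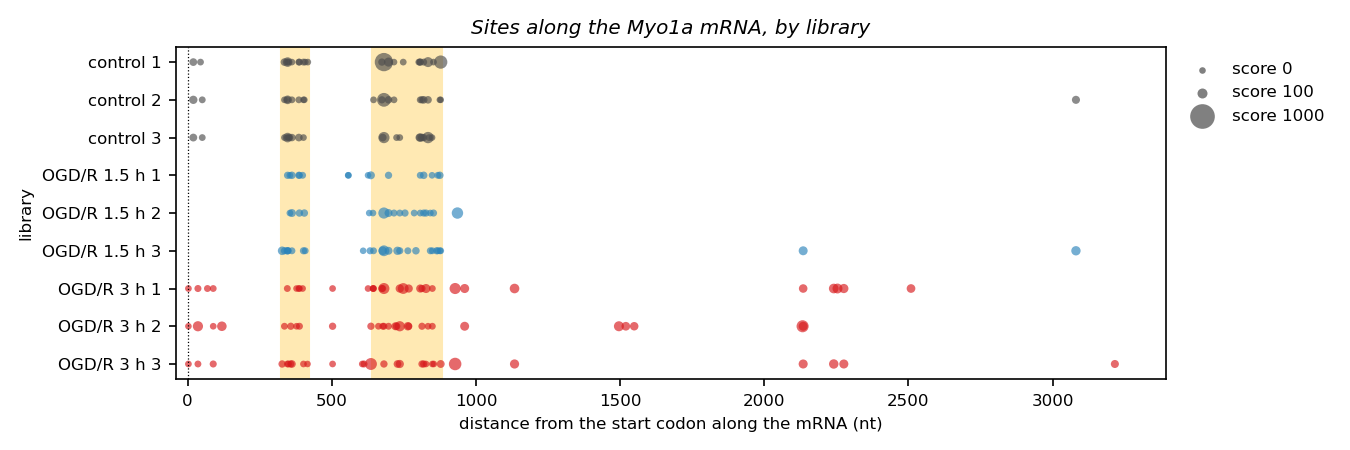
Myo1a sites in each of the 9 libraries (rows) by distance from the start codon along the mRNA in nt (horizontal axis); the area of a point grows with its score and shading marks exons 4, 8 and 9. The shaded exons hold 12 to 22 sites in every library, and the part beyond them holds 6 to 8 sites in OGD/R 3 h libraries and 0 to 2 in the others.

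Vil1, which encodes the actin-bundling and severing protein villin (chr1:74409384-74435560, plus strand), showed the widest gap of the 10 genes between OGD/R 3 h and the other libraries. Control libraries held 5, 6 and 5 sites, OGD/R 1.5 h libraries 4, 7 and 6, and OGD/R 3 h libraries 16, 16 and 15. The lowest Vil1 count in OGD/R 3 h, 15, exceeded the highest in the other groups, 7, while control and OGD/R 1.5 h overlapped. With each group counted as 1 sample, the spread between libraries gives no measure against which to judge this gap. Over the 3 libraries, 25 distinct sites were listed in OGD/R 3 h against 9 in control and 8 after OGD/R 1.5 h.

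The Vil1 sites listed in the most libraries lay in the exon 19 run shown above, near the end of the coding sequence. The cytosine at chr1:74432417 was listed in 7 libraries, with scores of 492 in control replicate 3, 546, 467 and 342 in OGD/R 1.5 h and 820, 357 and 170 in OGD/R 3 h. Its upstream neighbour at chr1:74432416 was listed in no control library and had scores of 416, 397 and 434 in OGD/R 1.5 h and 244, 199 and 361 in OGD/R 3 h. The scores at this second cytosine were lower in each OGD/R 3 h library than in any OGD/R 1.5 h library, while those at the first overlapped.

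The other capitals of the run are named because of where they lie, after their values were seen. At chr1:74432418 and chr1:74432419, which with chr1:74432417 make up codon 786, calls came from all 3 OGD/R 3 h libraries and no other, with scores of 195, 87 and 389 at the former and 322, 67 and 103 at the latter. At chr1:74432422 calls came from all 3 OGD/R 1.5 h libraries and no other, with scores of 504, 335 and 187. Only 1 control library had a call anywhere in the run. In exon 18, the cytosine at chr1:74430650 was listed in no control library, in OGD/R 1.5 h replicates 2 and 3 with scores of 61 and 190, and in OGD/R 3 h with scores of 90, 198 and 106. The exon 7 cytosine at chr1:74421260 was the other Vil1 site found in all 3 groups, in 5 libraries and with scores of 46 to 152.

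Ezr, which encodes the membrane linker ezrin (chr17:6738131-6782780, minus strand), differed between groups in score rather than in number. Control libraries held 6, 14 and 10 sites, OGD/R 1.5 h libraries 4, 7 and 8, and OGD/R 3 h libraries 8, 7 and 9, so the groups overlapped. The exon 9 cytosine at chr17:6742449 stood at the cap of 1000 in all 3 control libraries, was listed in no OGD/R 1.5 h library and had scores of 199, 96 and 625 in OGD/R 3 h. Scores at this CG cytosine were lower in OGD/R 3 h than in control, and by how much is unknown because of the cap.

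In all, 5 Ezr sites were called in all 3 control libraries. In the 5′UTR, chr17:6782704 had control scores of 0, 0 and 0 and chr17:6782695 scores of 2, 2 and 2. Besides the exon 9 cytosine, the remaining pair lay in exons 10 and 11. At chr17:6741527 in exon 10 control scores were 460, 1000 and 147, no OGD/R 1.5 h library had a call, and OGD/R 3 h replicate 3 had a score of 48. In exon 11, at chr17:6741051, the control scores were 250, 236 and 245, OGD/R 1.5 h replicate 2 had a score of 58, and OGD/R 3 h had no call. Both were listed in at most 1 library of each treated group. Ezr was the member with the most sequence shared with other places in the genome, as 6.34% of its exon stretches of 32 bases and 0.0444% of those of 64 bases occur elsewhere when C is read as T, against at most 0.484% and 0 for the other members.

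**Figure D4:**
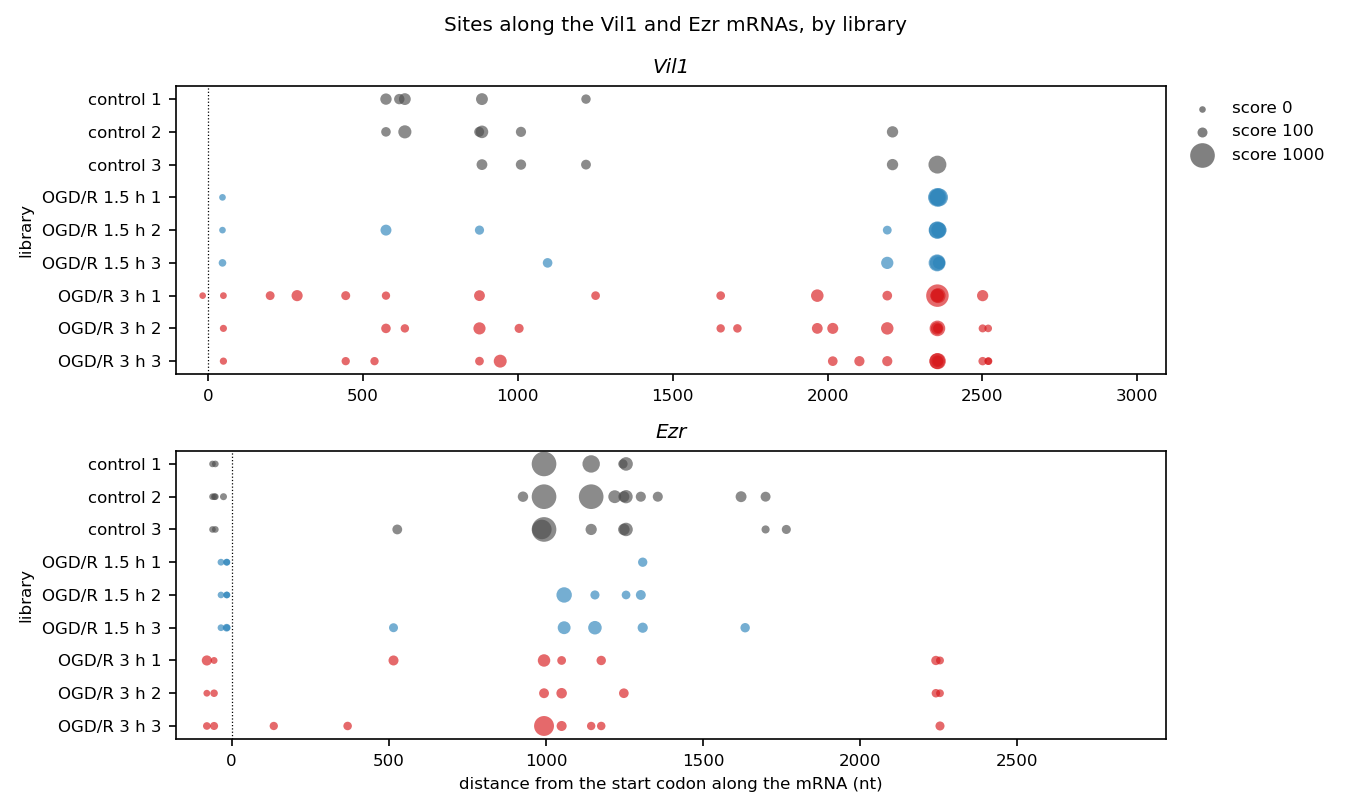
Sites along the Vil1 (top) and Ezr (bottom) mRNAs in each of the 9 libraries (rows) by distance from the start codon in nt; the area of a point grows with its score. Vil1 sites spread over the mRNA in OGD/R 3 h libraries, with 15 to 16 sites each, and the largest Ezr points, at the cap of 1000, are in control libraries.

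At all 6 libraries of a pair of groups, few member sites could be compared by score. Between OGD/R 3 h and control there were 2, the Myo1a exon 8 and Ezr exon 9 sites, and both were lower in OGD/R 3 h, where 15.6% of the 250 such mRNA sites were lower and 10.8% were higher. For OGD/R 1.5 h and control 1 of 2 sites was lower, in Myo7a, where 13.6% of all such sites were lower and 9.18% higher. For OGD/R 3 h and OGD/R 1.5 h 1 of 2 was lower, the Vil1 site at chr1:74432416, against 15.5%. None of the member sites was higher.

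Among the tip-link cadherins, Cdhr2 and Cdhr5 had more sites after OGD/R 3 h. Cdhr2 (chr13:54701463-54736662, plus strand) had no site in any control library, 0, 2 and 0 in OGD/R 1.5 h, and 7, 6 and 5 in OGD/R 3 h. The OGD/R 3 h libraries lay above all others, control and OGD/R 1.5 h overlapped, and the 10 sites of OGD/R 3 h ran from exon 2 to exon 32. At the exon 13 cytosine chr13:54719589 the OGD/R 3 h scores were 510, 122 and 200, and no other library listed it. Near the Cdhr2 start codon, chr13:54712655 had scores of 12, 11 and 51 and chr13:54712661 scores of 3, 0 and 0, in OGD/R 3 h libraries only.

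Cdhr5 (chr7:141269080-141276795, minus strand), the partner of Cdhr2 in the tip link, had 3, 2 and 0 sites in control libraries, 2, 2 and 2 after OGD/R 1.5 h and 6, 8 and 5 in OGD/R 3 h. Every OGD/R 3 h library was above every other library. The Cdhr5 sites called in all 3 libraries of a group had low scores: chr7:141276652 had 3 in OGD/R 1.5 h replicate 1 and 1, 0 and 1 in OGD/R 3 h. At chr7:141276664 the scores were 3, 3 and 7 in OGD/R 1.5 h, with no call in the other groups. The highest Cdhr5 score, 483, came from a site in OGD/R 3 h replicate 2 alone.

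The adaptor and motors of the tip-link complex carried few sites. Ush1c (chr7:46195350-46238490, minus strand) had 1, 1 and 3 sites in control, 1, 2 and 1 after OGD/R 1.5 h and 1, 1 and 3 in OGD/R 3 h, with full overlap. Its exon 13 cytosine at chr7:46220484 was listed in OGD/R 3 h only, with scores of 248, 75 and 258, and the 5′UTR cytosine at chr7:46238471 in OGD/R 1.5 h only, with scores of 3, 1 and 2. The number of Ush1c sites was thus alike, while most listed positions differed. The cytosine at chr7:46221394 was shared by control and OGD/R 1.5 h. None of the 9 Ush1c sites was found in all 3 groups, where only 3.62% of all mRNA sites were.

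Myo7b, the motor of the tip-link complex (chr18:31959234-32036931, minus strand), had 1, 0 and 0 sites in control, none in OGD/R 1.5 h and 1, 2 and 2 in OGD/R 3 h. OGD/R 3 h was separated from OGD/R 1.5 h and touched control. Its only recurrent site, at chr18:32021547 in codon 2, was listed in the 3 OGD/R 3 h libraries with scores of 2, 44 and 18.

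Myo7a, the related motor of hair cells and retina (chr7:98051054-98119522, minus strand), was the only member with fewer sites in every OGD/R 3 h library than in any control library. Control libraries held 1, 1 and 2 sites, OGD/R 1.5 h libraries 1, 2 and 2, and OGD/R 3 h libraries none. The exon 23 cytosine at chr7:98077757 carried this pattern, with scores of 791, 408 and 401 in control, 343, 144 and 85 after OGD/R 1.5 h and no call in OGD/R 3 h. Each OGD/R 1.5 h score was below each control score.

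Of the other actin bundlers, Pls1 (chr9:95752642-95845306, minus strand) held 5, 4 and 3 sites in control, 5, 4 and 4 after OGD/R 1.5 h and 6, 4 and 5 in OGD/R 3 h. The Pls1 groups overlapped in number. No Pls1 site was found in all 3 groups, where only 3.62% of all mRNA sites were. At chr9:95845179 in the 5′UTR a score of 2 was listed in OGD/R 1.5 h replicate 1 and scores of 57, 18 and 6 in OGD/R 3 h, and chr9:95795845 had scores of 7, 21 and 7 in OGD/R 3 h only. At chr9:95845211, also in the 5′UTR, scores of 12, 2 and 16 were listed in control only. The highest Pls1 score was 662, in control replicate 2. Espn (chr4:152120331-152152414, minus strand) had a single site, in OGD/R 1.5 h replicate 1, with a score of 28.

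Other genes of the pathway gave a reference for the members. Of 30 partners of the brush border, 19 carried a site, where 2598 of the 21000 annotated genes did. Those with the most were Sptan1, a spectrin of the terminal web, with 55 distinct sites, and the myosin Myo1d with 47. The nonmuscle myosin heavy chain Myh14 followed with 46. In Sptan1 the libraries held 10, 13 and 9 sites in control, 14, 11 and 14 after OGD/R 1.5 h and 15, 15 and 11 in OGD/R 3 h, so OGD/R 3 h and control overlapped. The partners as a list held 40, 46 and 36 sites in control, 50, 39 and 43 after OGD/R 1.5 h and 64, 62 and 47 after OGD/R 3 h. The lowest OGD/R 3 h library was just above the highest control library and below the highest OGD/R 1.5 h library. These list counts were not scaled to the mRNA sites of each library, which were highest in OGD/R 3 h. Of 18 partners with a site in OGD/R 3 h or control, 3 were higher in every OGD/R 3 h library (Baiap2l1, Cobl and Slc9a3r1) and 1 was lower (Slk), all 4 named after their values were seen, against 18.5% and 18.8% of all genes. In Slc9a3r1, which encodes a scaffold that binds ezrin, control libraries held 1, 3 and 1 sites and OGD/R 3 h libraries 7, 8 and 9. Paralogs of the bundlers, Pls3, Lcp1, Vill, Avil and Espnl, had no site in any library. Of 11 hair bundle partners, only Eps8l2, which is also among the 30 brush border partners, carried sites, 5 in all.

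Most sites were listed in a single group. Of the sites listed in a group, 24.4% in control (20 of 82), 16.7% in OGD/R 1.5 h (14 of 84) and 23.7% in OGD/R 3 h (31 of 131) were called in all 3 libraries, compared with 26.6%, 18.0% and 30.8% of all mRNA sites. Of the 222 sites, 164 (73.9%) were listed in 1 group only, 41 (18.5%) in 2 and 17 (7.66%) in 3, and none in all 9 libraries. Over all mRNA sites these shares were 80.8%, 15.5% and 3.62%, with 0.595% in all 9 libraries. The 17 sites were 15 in Myo1a and 2 in Vil1. OGD/R 3 h and control shared 27 sites, 20.6% of the sites of OGD/R 3 h and 32.9% of those of control, against 16.9% and 20.5% over all mRNA sites. OGD/R 1.5 h and control shared 31, 36.9% and 37.8% of their sites, against 26.2% and 27.2%.

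Sites that were called in all libraries of one group and in none of another were counted next. Of 186 member sites listed in OGD/R 3 h or control, 26 were in all 3 OGD/R 3 h libraries and no control library, and 9 were the reverse. Over all mRNA sites of these groups the shares were 15.0% and 9.93%. Between OGD/R 1.5 h and control the numbers were 10 and 9 of 135 member sites, against 6.26% and 10.2% of mRNA sites. Between OGD/R 3 h and OGD/R 1.5 h they were 21 and 10 of 181, against 15.2% and 6.66%.

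Sites called in all 3 libraries of 1 group and in no other group lay mostly near the start codon. Within 100 nt of the start codon the 10 genes had 35 sites, 33 of which (94.3%) were listed in 1 group only and 24 (68.6%) were of this kind. Elsewhere 131 of 187 sites (70.1%) were in 1 group only and 10 (5.35%) were of this kind. Over all mRNA sites, 87.1% near the start codon and 78.9% elsewhere were in 1 group only, and 42.4% and 12.1% were of this kind. Scores near the start codon were low, with a median of 5.00 over 90 calls (range 0 to 107) against 57.0 over 398 calls elsewhere (range 0 to 1000). For all mRNA sites these medians were 7.00 and 11.0.

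The pattern near the start codon was seen in several members. Ezr had 9 such sites, all in the 5′UTR, of which 7 were in all 3 libraries of a single group. Control libraries listed the cytosines 61 and 52 nt upstream of the start codon, OGD/R 1.5 h libraries those 34, 16 and 15 nt upstream, and OGD/R 3 h libraries those 79 and 56 nt upstream. Pls1 had 7 such sites, 6 of them in all 3 libraries of a single group, and Myo1a had 7, with 4 of that kind. The Myo1a transcript used begins at its start codon, so no Myo1a site upstream of it could be counted. Of the 35 sites near the start codon of the 10 genes, 8 were listed in 1 library only. Leaving out Myo1a gave 71.4% near the start codon and 8.41% elsewhere.

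**Figure D5:**
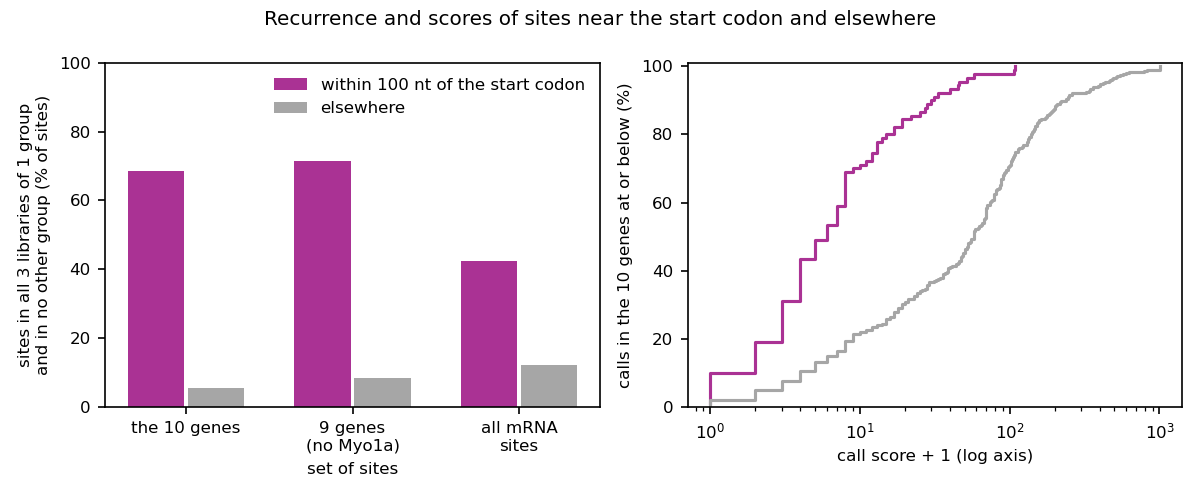
Left, percent of sites that were called in all 3 libraries of 1 group and in no other group, for sites within 100 nt of the start codon and elsewhere, at 68.6% and 5.35% in the 10 genes and at 42.4% and 12.1% over all mRNA sites. Right, cumulative percent of calls in the 10 genes by score plus 1 (log axis), with medians of scores of 5.00 near the start codon (purple) and 57.0 elsewhere (grey).

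By region, member sites lay in the CDS more often than mRNA sites in general, which in OGD/R 1.5 h depended on Myo1a. The CDS held 88.5 ± 2.55% of member sites in control libraries, 82.8 ± 5.76% in OGD/R 1.5 h and 86.5 ± 1.36% in OGD/R 3 h (SD, 3 libraries), against means of 69.3%, 74.0% and 64.7% of all mRNA sites. The member exons themselves have 85.3% of their cytosines in the CDS. The groups overlapped in this share. Without Myo1a the mean CDS shares were 78.1% in control, 67.5% in OGD/R 1.5 h and 78.2% in OGD/R 3 h. The OGD/R 1.5 h share then lay below the 74.0% of all mRNA sites. Sites in the 3′UTR made up 0.758 ± 1.31%, 1.74 ± 1.54% and 6.32 ± 1.65%, and the OGD/R 3 h libraries (5.19% to 8.22%) lay above those of control (0 to 2.27%) and of OGD/R 1.5 h (0 to 2.94%). Over all mRNA sites the 3′UTR share was also higher after OGD/R 3 h, at 9.82% to 10.4% against 8.17% to 8.65% in control and 8.40% to 8.64% after OGD/R 1.5 h. In OGD/R 3 h 7 distinct sites were in a 3′UTR, in Vil1, Ezr, Pls1 and Myo1a.

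By sequence context, control sites were richer in CG. A cytosine followed by G was found at 30.0 ± 4.86% of the member sites in control libraries, 13.6 ± 3.01% in OGD/R 1.5 h and 12.6 ± 1.60% in OGD/R 3 h. Control libraries, at 25.0% to 34.7%, did not overlap the others. The mean shares over all mRNA sites were 27.4%, 22.0% and 21.1%, and 11.9% of all cytosines in the member exons are in CG. The gap was wider without Myo1a, where the CG shares of control and OGD/R 3 h were 43.3% and 15.0%. The motif CNGGG, read on the mRNA strand with the site as its first letter, was found at 8 of 222 sites (3.60%) and at 2.17% of the exon cytosines.

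The median score of member sites in a library was 38.8 ± 6.25 in control, 17.0 ± 7.94 in OGD/R 1.5 h and 50.2 ± 6.53 in OGD/R 3 h, against means of 9.67, 7.00 and 11.7 over mRNA sites. The order of OGD/R 3 h and control depended on which sites were kept: with no other site within 10 nt the means were 54.5 and 95.7, and without Myo1a 60.5 and 115.8. OGD/R 1.5 h was below control with either choice.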

How the data were processed

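The authors trimmed reads with cutadapt 1.9.3 after base calling with CASAVA 1.8, used meRanGh to align bisulfite reads to mm10, and kept the meRanCall calls whose level reached 0.1 and whose coverage reached 10. STAR is also named per the labels. The deposited score of each site was used as it stands, with no normalization by the authors, and depth is unknown. The genes, lists and comparisons were chosen with earlier results of these data known. Sites were placed with Python 3.11.15 and samtools 1.23.1 on the exons of RefSeq NM transcripts (GRCm38.p6), using the transcript with the longest CDS that holds the site, and the code was tested on simulated data. All 10 genes are described. Single sites named are those called in all 3 libraries of a group, at most 3 per gene, those listed in all 3 groups, and the highest scores. Most Myo1a sites listed in all 3 groups are only counted. The Vil1 run and the Ezr sites near the start codon are named outside this rule, to show where they lie. Groups are separated where all 3 libraries of one lie above all 3 of the other. Whether replicates differ beyond sampling noise was checked on the coverage in the part of the study's site table that was held, for control and OGD/R 3 h. OGD/R 1.5 h was treated alike. With each group thus being 1 sample, no test was run. The alternatives were recurrence in 2 or 3 libraries, a score of at least 10, no neighbour within 10 nt, the share of mRNA sites, codon regions taken out and each library left out. Outside these exons, 11 sites on the same strand of Myo1a, Pls1 and Espn were left out.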

Additional observations from a re-analysis of the deposited data

How the results depend on the processing

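No paired analysis was possible because the 3 libraries of a group were counted as 1 sample and no test was run. Mean sites per library differed by 27.7 for OGD/R 3 h against control and by 31.7 for OGD/R 3 h against OGD/R 1.5 h. The differences were 11 and 17 with sites called in all 3 libraries of a group and 14.1 and 14.2 as a share of mRNA sites, scaled to the mean library, and the first was 19.0 with sites in at least 2 libraries. Among alternatives chosen after the data were seen, predicted transcripts gave 23.7 for the first difference, leaving out sites near the start codon 21.0, and leaving out Myo1a 20.0 and 22.0 for both. The direction held throughout. The difference in median score was 11.3 between OGD/R 3 h and control and reversed to -41.2 with no neighbour within 10 nt, to -55.3 without Myo1a and to -28.8 without sites near the start codon. Between OGD/R 1.5 h and control it was -21.8, with -11.7 for sites in all 3 libraries, -77.7 with no neighbour, -63.3 without Myo1a and -46.7 without sites near the start codon. For the CDS share, OGD/R 3 h minus control was -1.99 points, with -5.06 for sites in at least 2 libraries, -7.91 for scores of at least 10 and -7.21 with the codon regions taken out, and OGD/R 1.5 h minus control was -5.70, with -22.9 for sites in all 3 libraries and -12.2 in at least 2. The CG share differed by -17.5 points for OGD/R 3 h, with -12.1 for sites in all 3 libraries, -22.9 in at least 2, -28.3 without Myo1a and -11.4 without the start region, and by -16.4 for OGD/R 1.5 h, with -22.3, -29.8 and -10.6 for the last 3. With sites in all 3 libraries, 5 of the 8 control members with a site remained counted. Sites in all 3 libraries numbered 20 in control, 14 after OGD/R 1.5 h and 31 after OGD/R 3 h, with 9, 5 and 16 at a score of at least 10, and 6, 5 and 18 with no neighbour; without Myo1a control had 9, and without the start region OGD/R 1.5 h had 6 and OGD/R 3 h 18. With 1 library left out, the sites in all remaining libraries of a group numbered 22 to 29 in control, 18 to 20 in OGD/R 1.5 h and 37 to 43 in OGD/R 3 h. Leaving out single libraries moved no difference between groups beyond the spread between libraries, but the smaller differences changed. The sites of OGD/R 1.5 h minus control went from -4.00 to 0.167 without OGD/R 1.5 h replicate 1. They went to -2.67 without control replicate 2 and to -7.33 without OGD/R 1.5 h replicate 3. The CDS share of OGD/R 3 h minus control went to -0.578 without control replicate 1, to -3.05 without control replicate 3 and to -1.22 without OGD/R 3 h replicate 3, and that of OGD/R 1.5 h minus control to -2.55 without OGD/R 1.5 h replicate 1. The cause of these shifts was not tested.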
